A study of Mus musculus with 22 samples.

Results

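Granulation tissue of Mmp13-/- mice was compared with that of WT mice at 21 d, the last harvest of a series in which a viscose cellulose sponge placed under the dorsal skin served as the scaffold for the new tissue. The comparison holds 8 of the 22 arrays of the series, 4 of Mmp13-/- tissue and 4 of WT tissue, and they were taken by genotype and day from the sample labels. Both groups were male mice on the same C57BL/6 x 129 background by their labels, although the design text has the knockout backcrossed into C57BL6 and the WT animals bred from the backcrossed heterozygotes. Their labels also give an age of 5 to 8 weeks, and the paper states age at implantation, 21 d before this harvest. One sponge sample per mouse was used, the deletion is present in every cell of the Mmp13-/- mice, and the labels name no further treatment of either group. All 8 arrays belong to the hybridization series that started from 250 ng of RNA, so that labelling and genotype are not mixed at this day. The values are log2 signals from the 3' end of each RNA, and a difference of 1 is a factor of 2 on the linear scale.

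MMP-13, or collagenase-3, is a secreted proteinase that cuts fibrillar collagens and other matrix proteins and releases growth factors and cytokines that are bound to them. Granulation tissue is the transient tissue of a healing wound, built of fibroblasts and contractile myofibroblasts, new capillaries, macrophages and other leukocytes in a loose matrix. As it matures, vessels regress and the matrix is remodelled.

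The tissue carried the markers its label calls for. Col1a1, the main fibrillar collagen, lay between 12.95 and 13.10 in Mmp13-/- arrays and between 13.03 and 13.14 in WT arrays. Acta2, the smooth muscle actin of myofibroblasts, lay between 11.40 and 11.73 in Mmp13-/- arrays and between 11.31 and 11.87 in WT arrays. The macrophage lysozyme gene Lyz2 was above 13 on every array, and the mean level of 20 keratinocyte genes was 3.78 to 3.83 in Mmp13-/- and 3.85 to 4.28 in WT arrays, below the median of all probe sets (4.22) on every array except WT replicate 3. WT replicate 3 stood somewhat apart: its values had the smallest spread of the 8 arrays (SD 2.19, against 2.25 to 2.29 in Mmp13-/- and 2.30 to 2.31 in the other WT arrays) and the lowest correlation with the others (0.975 to 0.981, against up to 0.989). Mmp13-/- replicate 2 had the largest excess of 3' over 5' signal, a sign of RNA quality, at 0.86 for actin and 0.91 for Gapdh. The other Mmp13-/- arrays had 0.47 to 0.58 and 0.46 to 0.54, and WT arrays 0.45 to 0.69 and 0.35 to 0.75. Calls without this array are given below, and the effect of RNA quality was not tested.

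Mmp13 itself was the gene with the largest difference. Its log2 signal was 7.72, 8.22, 8.07 and 7.62 in Mmp13-/- arrays, against 11.39, 10.72, 10.55 and 12.02 in WT arrays. The groups did not overlap, and the gap between them was wider than either group's own range. The log2 difference was -3.26 ± 0.26 (SE; limma, Benjamini-Hochberg adjusted p = 4.71e-06), and the exact two-sided permutation test over the 8 arrays gave p = 0.0286, the smallest that 4 against 4 allows. Its signal in Mmp13-/- tissue stayed above the median of all probe sets, and no source used here says if its probes match the deleted exons.

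Of 45037 probe sets tested, 22 were called at an adjusted p under 0.05 (limma), which is 0.0488%, with 13 higher (0.0289%) and 9 lower (0.02%) in Mmp13-/- tissue. The split depended on scaling: with each array centred on its own median, 35 were called, 11 higher and 24 lower. At an unadjusted p under 0.05 there were 5368 (11.9%), and 162 (0.36%) also had a log2 difference over 0.75 in either direction, 58 higher and 104 lower. Of the 22, 12 lay below the median signal of all probe sets, 16 had a single gene name and 6 had none. Fitted on the 8 arrays of 21 d alone, 10 were called, and 4 of these were among the 22: Mmp13, Atm, Slc40a1 and Nnmt. The other 6 included 3 of the 4 probe sets of Cadm1 and the brightest probe set of Epha3.

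**Figure D1:**
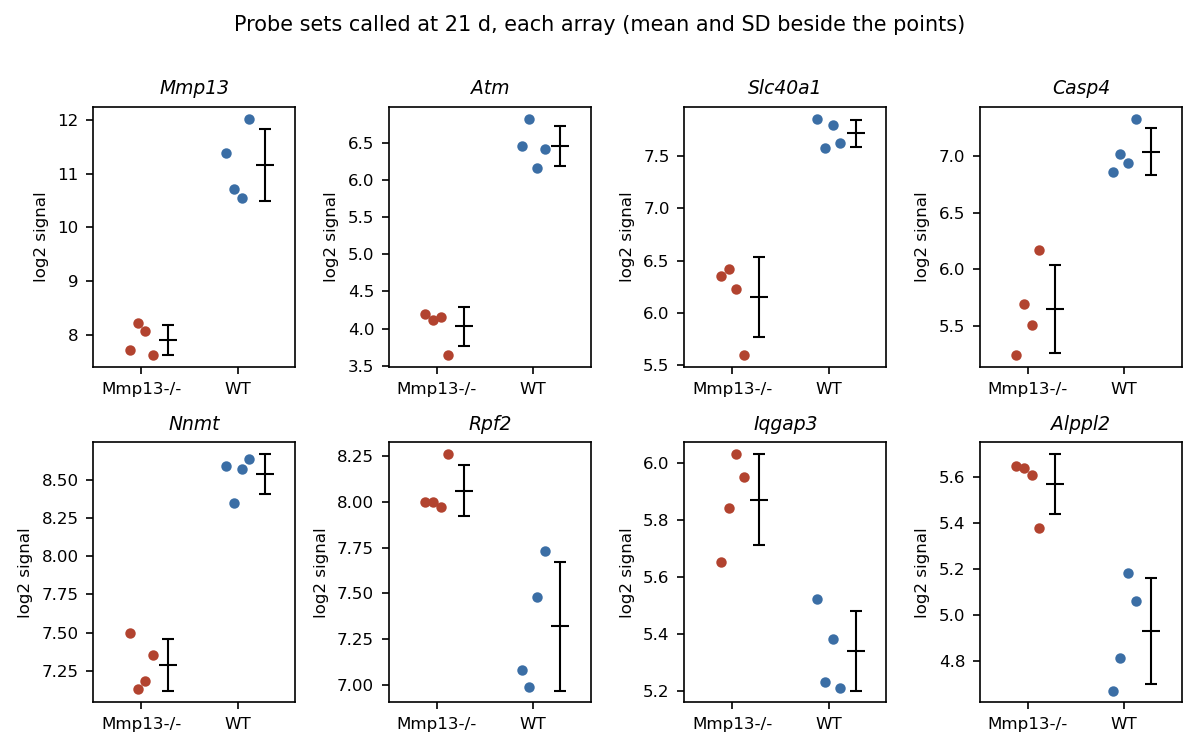
Log2 signal of 8 called probe sets at 21 d on each array, Mmp13-/- left and WT right in each panel, with the group mean and SD (n = 4 each) beside the points. The groups did not overlap in any of the 8 panels, and Mmp13 and Atm had the widest gaps.

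Among the named genes that fell, Slc40a1 codes for ferroportin, the iron exporter of macrophages and other cells. Its called probe set read 6.35, 6.42, 6.23 and 5.59 in Mmp13-/- arrays and 7.86, 7.58, 7.80 and 7.63 in WT arrays, a log2 difference of -1.57 ± 0.21 (SE; limma, adjusted p = 0.00504). The brighter probe set of the gene gave -1.51 with an adjusted p of 0.0629. The genotypes were separate on both probe sets, with Mmp13-/- replicate 4 the lowest.

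Casp4, the inflammatory caspase that senses bacterial lipopolysaccharide inside cells, read 5.24, 5.69, 5.51 and 6.17 in Mmp13-/- arrays and 6.86, 7.02, 6.94 and 7.33 in WT arrays. The groups did not overlap, and the log2 difference was -1.39 ± 0.19 (SE; limma, adjusted p = 0.00504). Nnmt, which methylates nicotinamide, read 7.50, 7.13, 7.18 and 7.35 in Mmp13-/- arrays and 8.59, 8.35, 8.57 and 8.64 in WT arrays, a log2 difference of -1.25 ± 0.23 (SE; limma, adjusted p = 0.0489). All its WT values were more than 0.8 above the highest Mmp13-/- value, and its call was lost without Mmp13-/- replicate 2, 3 or 4 or WT replicate 1 or 4 (highest adjusted p = 0.0795).

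Atm codes for the kinase that responds to DNA double-strand breaks, and only 1 of its 2 probe sets differed. That probe set read 4.20, 4.12, 4.16 and 3.64 in Mmp13-/- arrays and 6.45, 6.82, 6.16 and 6.42 in WT arrays, a log2 difference of -2.43 ± 0.33 (SE; limma, adjusted p = 0.00504). The other, brighter probe set read 6.66, 6.44, 6.31 and 6.11 in Mmp13-/- arrays and 6.38, 6.49, 6.28 and 6.47 in WT arrays, a difference of -0.03 with an adjusted p of 0.955. The pair therefore disagreed, and the level of Atm RNA as a whole is not settled by them. In the same way, the called probe sets of Cdk5 (0.75), Cemip2 (0.70), Wdr78 (0.60), Kctd14 (-0.70) and Pcmtd1 (-0.80) were dimmer than another probe set of the gene whose difference lay between -0.26 and 0.08 and was not called.

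Of the genes whose brightest probe set rose, Rpf2 takes part in assembly of the large ribosomal subunit and Iqgap3 is a scaffold protein of dividing cells. Rpf2 read 8.00, 8.00, 7.97 and 8.26 in Mmp13-/- arrays and 7.08, 6.99, 7.48 and 7.73 in WT arrays, a log2 difference of 0.74 (adjusted p = 0.0433, limma). Iqgap3 read 5.65, 5.84, 6.03 and 5.95 in Mmp13-/- arrays and 5.52, 5.23, 5.38 and 5.21 in WT arrays, a difference of 0.53 (adjusted p = 0.0328, limma). The alkaline phosphatase gene Alppl2 (0.64, adjusted p = 0.0328, limma) and the dim genes Rbm4b (0.86, adjusted p = 0.0328, limma) and Ccdc63 (0.56, adjusted p = 0.0489, limma) completed this set. A called probe set of Aph1b, a subunit of gamma-secretase, was higher by 0.61 (adjusted p = 0.0328, limma), and its brighter probe set by 0.76 without a call. Leaving out 1 array at a time kept the calls of Mmp13, Atm, Casp4, Cdk5, Pcmtd1, Rbm4b, Slc40a1 and 1 unnamed probe set in all 8 fits. The other 14 were lost at least once. Most of them were lost without Mmp13-/- replicate 2, the array with the largest 3' excess. The fit without it called 22 probe sets, 9 of them among the 22 of the main fit. Rpf2 was lost without Mmp13-/- replicate 2 or 4 or WT replicate 1 or 2, Iqgap3 without Mmp13-/- replicate 2, 3 or 4, Alppl2 without Mmp13-/- replicate 2 or WT replicate 1 or 2, Ccdc63 without Mmp13-/- replicate 2, 3 or 4 or WT replicate 1, and Aph1b without Mmp13-/- replicate 2 or WT replicate 1, with adjusted p-values of at most 0.0853. Mmp13-/- replicate 2 was also needed by Kctd14, Wdr78 and Cemip2, replicate 4 of that group by Kctd14 and Cemip2, its replicate 3 by Wdr78, and WT replicate 1 by Cemip2 (at most 0.0751).

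Below the threshold, the largest positive difference was that of Cadm1, an immunoglobulin-type cell adhesion molecule. It read 8.62, 9.71, 9.67 and 9.05 in Mmp13-/- arrays and 7.50, 6.70, 7.31 and 6.70 in WT arrays, a log2 difference of 2.21 ± 0.58 (SE; limma, adjusted p = 0.131). All 4 of its probe sets were higher in Mmp13-/- tissue with no overlap between groups, and the fit on the 21 d arrays alone called it (adjusted p = 0.0363). Calml4, a calmodulin-like gene, differed by 1.79, Gpt2, the mitochondrial alanine aminotransferase, by 1.42, and Dixdc1, a component of Wnt signalling, by 1.10, each with all Mmp13-/- arrays above all WT arrays and adjusted p-values between 0.0656 and 0.115 (limma). Of the 4 probe sets of Dixdc1, 2 were higher and 2 were not. The serpin Serpini1 (0.99) was also separated, while the mitochondrial folate enzyme Aldh1l2 (0.97) and the histone H2bc21 (1.08) overlapped. The difference of H2bc21 dropped to 0.47 without WT replicate 3, in which it read 3.54, against 5.85 to 6.19 in the other WT arrays.

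The largest negative differences after Mmp13 included genes of the matrix and of cell signalling. Epha3, a receptor for ephrins, read 5.27, 5.76, 5.87 and 5.08 in Mmp13-/- arrays and 7.18, 6.91, 7.05 and 6.76 in WT arrays, a log2 difference of -1.48 (adjusted p = 0.134 from limma; 0.0439 on the 21 d arrays alone). Every Mmp13-/- array was more than 0.8 below every WT array. Nxpe4 differed by -1.92 with separate groups (adjusted p = 0.0837, limma), and Ogn, a small leucine-rich proteoglycan of the matrix, by -1.13 with overlap of the groups (adjusted p = 0.102, limma). The difference of Scg2, the precursor of secretoneurin, was -1.59, and WT replicate 4, at 5.46, was the lowest of the 8 arrays, below the Mmp13-/- arrays at 5.61 to 7.25, while the other WT arrays were at 8.33 to 8.97. Without that array it was -2.38 with an adjusted p of 0.0035 (limma). The interferon-induced gene Ifi44l differed by -1.95, of which Mmp13-/- replicate 1 gave the greater part: it read 2.72, against 6.94 to 8.68 in the other Mmp13-/- arrays and 8.08 to 8.58 in WT arrays, and without it the difference was -0.72.

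Genes were also counted by group, with each gene represented by its brightest probe set, over 18193 genes, of which 8 (0.044%) were called. Their median log2 difference was -0.01. At an unadjusted p under 0.05, 966 (5.31%) were higher and 1233 (6.78%) lower in Mmp13-/- tissue, and all Mmp13-/- arrays lay above all WT arrays in 240 (1.32%) and below them in 372 (2.04%). Apart from Casp4, no member of the 43 gene lists had an adjusted p under 0.05 in limma, so that what follows gives counts at the unadjusted threshold, to be read against those shares. RNA was taken from whole tissue, in which fewer cells of a type and less RNA per cell cannot be told apart.

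**Figure D2:**
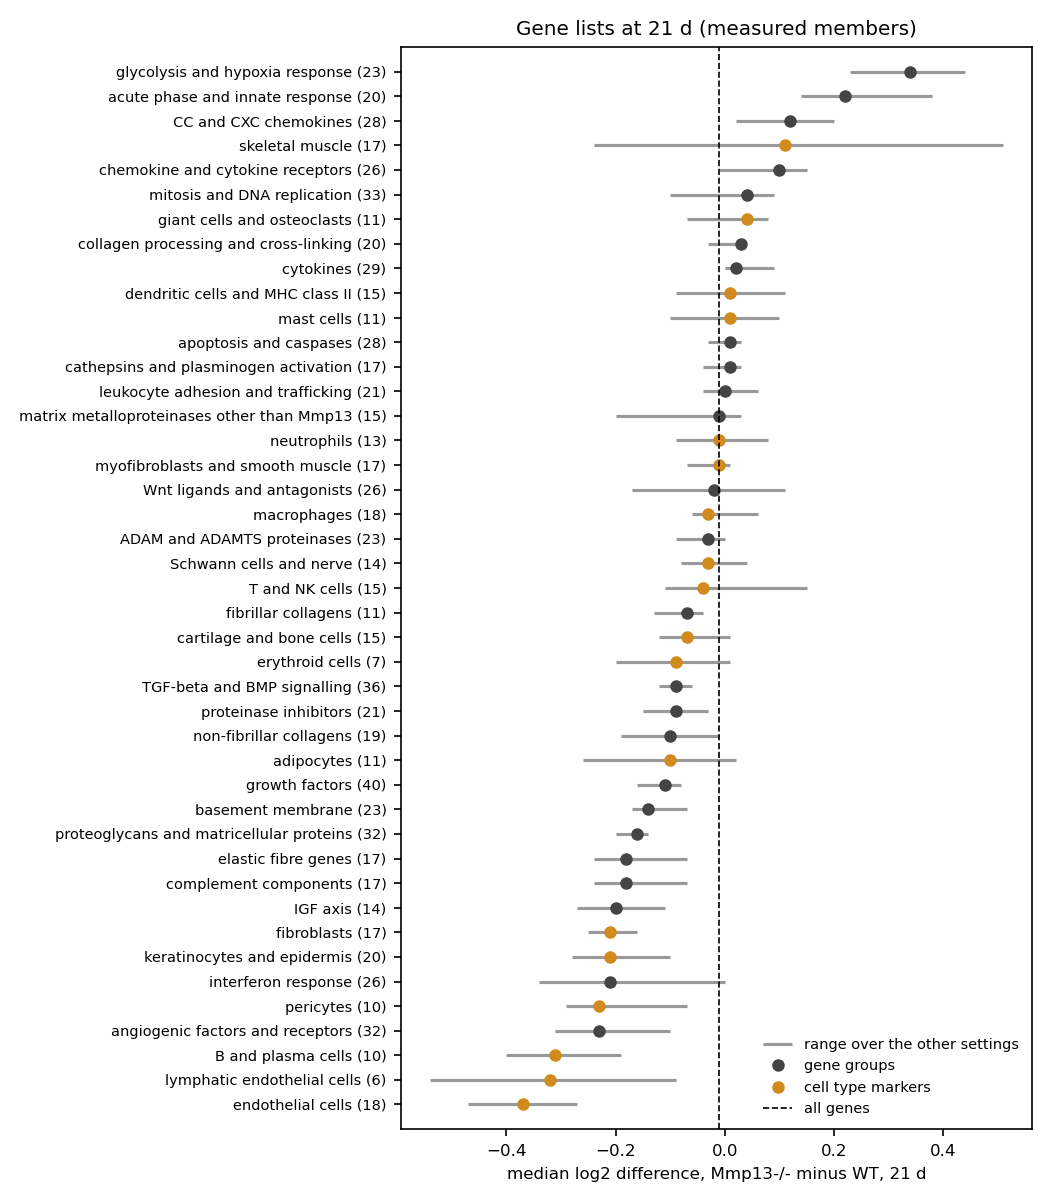
Median log2 difference of each gene list, Mmp13-/- minus WT at 21 d, with the number of measured members in parentheses. Dots are medians of pathway lists (dark) and cell type markers (orange), lines the range over the other settings, and the dashed line the median of all genes (-0.01). Glycolysis and hypoxia response stood highest (0.34) and endothelial cell markers lowest (-0.37).

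The list with the most even direction was that of glycolysis and the hypoxia response. Cells short of oxygen stabilise the factor HIF-1, which binds short elements with the core letters ACGTG or GCGTG and switches on glucose transport, glycolytic enzymes, the angiogenic factor VEGF-A and the hydroxylases that limit HIF itself. All 23 measured members were higher in Mmp13-/- tissue, 14 of them at an unadjusted p under 0.05 and none lower, with a median of 0.34. Mean levels of the list were 8.78 to 9.25 in Mmp13-/- arrays and 8.44 to 8.80 in WT arrays, so the groups just overlapped.

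Egln3, a prolyl hydroxylase that marks HIF for degradation, read 7.90, 7.79, 8.29 and 8.78 in Mmp13-/- arrays and 7.46, 6.87, 7.12 and 7.73 in WT arrays. The groups did not overlap, though by little, and the log2 difference was 0.90 ± 0.24 (SE; limma, unadjusted p = 0.00152, adjusted p = 0.141). Bnip3, a mitophagy receptor, read 10.38, 10.71, 10.82 and 11.08 in Mmp13-/- arrays and 10.14, 9.88, 10.15 and 10.45 in WT arrays, a difference of 0.59 ± 0.16 (SE; limma, adjusted p = 0.137). Vegfa read 6.39, 6.21, 6.36 and 6.77 in Mmp13-/- arrays and 6.04, 5.73, 5.49 and 6.03 in WT arrays, a difference of 0.61 ± 0.18 (SE; limma, adjusted p = 0.167) that its second probe set shared (0.39). Egln3 and Vegfa showed no overlap, while for Bnip3 WT replicate 4 exceeded Mmp13-/- replicate 1.

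The remaining members past the unadjusted threshold were the hexokinases Hk2 (0.41) and Hk1 (0.21), the glucose transporter Slc2a1 (0.52), the glycolytic enzymes Pgk1 (0.34), Pfkl (0.40) and Pfkp (0.30), Pdk1, which holds pyruvate back from mitochondria (0.39), the carbonic anhydrase Car12 (0.87), the collagen prolyl hydroxylase P4ha1 (0.32), Ndrg1 (0.44) and Ankrd37 (0.46). Among the 9 members that were not past it, the glycolytic enzymes Aldoa, Ldha and Tpi1 stood at 0.08, 0.11 and 0.16, the vasodilator peptide gene Adm at 0.05 and the carbonic anhydrase Car9 at 0.16. The count of 14 was 8 without Mmp13-/- replicate 4 and 8 without WT replicate 2, and between 10 and 16 without any other array, and 22 or all 23 members stayed positive throughout these fits. It was 9 on the 21 d arrays alone and 9 with arrays centred on their medians. The 14 d groups were other mice, with 3 arrays per genotype from the other hybridization series and 1 from that of the 21 d arrays. There the median of the same genes was 0.09, with 21 of 23 above 0. No interaction of genotype with day, 21 d against 14 d, was called for any probe set (limma, lowest adjusted p = 0.482, with 2965 at an unadjusted p under 0.05).

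**Figure D3:**
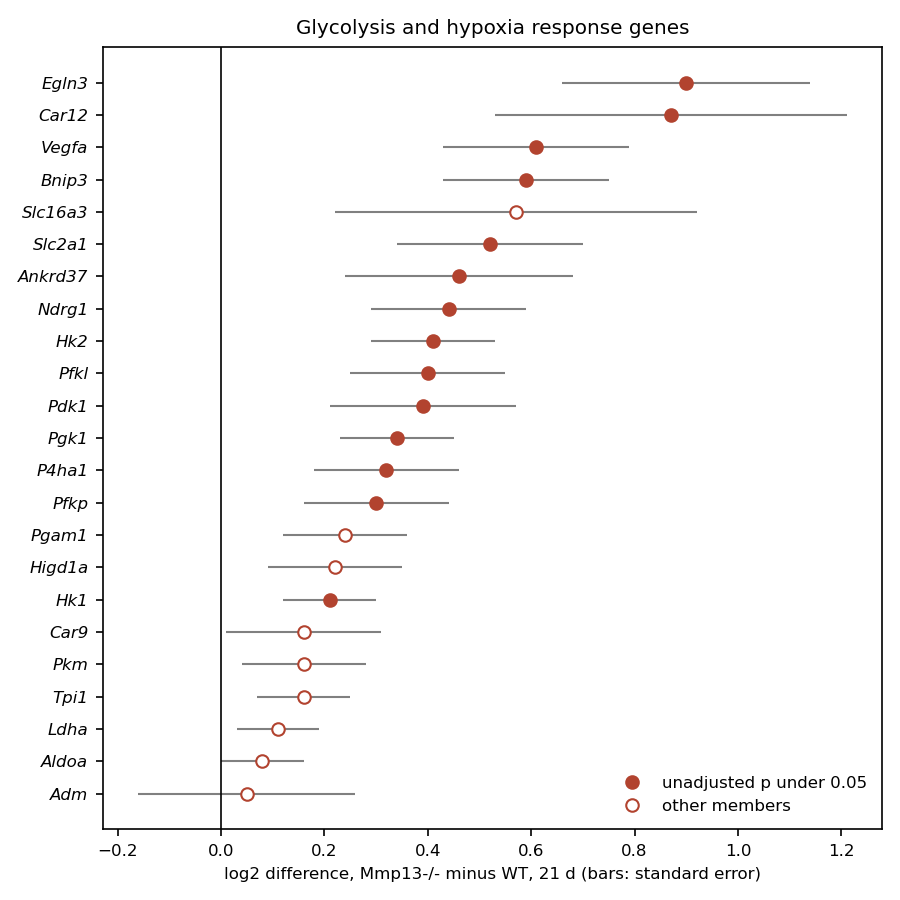
Log2 difference, Mmp13-/- minus WT at 21 d, of the 23 measured genes of glycolysis and the hypoxia response, ordered by size, with the standard error from the fit as bars. Filled dots mark the 14 with an unadjusted p under 0.05; all 23 lie to the right of 0, from 0.05 (Adm) to 0.90 (Egln3).

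The stretches in front of the 3 members of smallest p-value with a single promoter entry are shown because HIF elements are known in promoters of this group. They are the 250 bases before the start of the gene in RefSeq (GRCm38.p6), 5′ to 3′ on the gene's strand, and capitals mark the HIF core, ACGTG or GCGTG, found on this strand or on its complement. Bnip3 lies at chr7:138909507-138909756 (minus strand), Egln3 at chr12:54203875-54204124 (minus strand) and Hk2 at chr6:82774455-82774704 (minus strand).
Bnip3: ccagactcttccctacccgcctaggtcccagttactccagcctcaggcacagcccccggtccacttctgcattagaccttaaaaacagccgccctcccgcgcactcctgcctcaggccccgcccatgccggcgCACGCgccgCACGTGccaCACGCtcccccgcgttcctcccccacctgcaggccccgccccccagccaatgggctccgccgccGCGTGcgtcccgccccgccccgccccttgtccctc
Egln3: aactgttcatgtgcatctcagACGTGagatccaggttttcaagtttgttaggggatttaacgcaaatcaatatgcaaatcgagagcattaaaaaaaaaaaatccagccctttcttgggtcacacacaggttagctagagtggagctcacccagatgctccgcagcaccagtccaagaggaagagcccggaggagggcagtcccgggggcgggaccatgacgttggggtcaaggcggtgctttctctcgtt
Hk2: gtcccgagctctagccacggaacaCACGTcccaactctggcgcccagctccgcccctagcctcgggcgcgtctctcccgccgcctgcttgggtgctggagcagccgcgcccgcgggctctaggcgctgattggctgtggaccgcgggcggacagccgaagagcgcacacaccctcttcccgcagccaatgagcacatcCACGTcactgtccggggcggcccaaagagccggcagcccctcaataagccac
The Bnip3 stretch held 5 matches, of which a pair overlaps in the palindrome CACGTG, the E-box bound by other factors as well. The Hk2 stretch held 2 and the Egln3 stretch 1. Of the 23 measured members, 16 had a single promoter entry, and 14 of these (87.5%) held at least 1 match, against 12678 of 32841 promoter stretches of the same length in the table (38.6%). CACGTG alone was found in 6.02% of all stretches. The list was drawn up from genes of the hypoxia response, so a high share could come from that choice and says nothing about the genotypes. The 38.6% covers all stretches, those of genes with several entries included, and base composition was not matched. Such a match is a run of letters and not a measured binding site.

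The markers of endothelial cells, which line the vessels, lay on the other side. Of 18 measured, 17 were lower in Mmp13-/- tissue, with a median of -0.37, the lowest of all lists. Only 3 had an unadjusted p under 0.05, while 6 had every Mmp13-/- array below every WT array. The mean level of the list was 6.51 to 6.93 in Mmp13-/- arrays and 6.85 to 7.33 in WT arrays.

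Eng, the TGF-beta co-receptor endoglin, was the steadiest of them. It read 7.81, 7.73, 7.79 and 7.86 in Mmp13-/- arrays and 8.25, 8.26, 8.06 and 8.29 in WT arrays, a log2 difference of -0.42 ± 0.09 (SE; limma, adjusted p = 0.0667). Within each genotype its values lay close together, and the groups were apart; without WT replicate 3 the adjusted p was 0.0357. Ramp2, the co-receptor for adrenomedullin, differed by -0.56 and Tek, the angiopoietin receptor TIE2, by -0.61, both with separate groups. Separate groups were also seen for the endothelial cadherin Cdh5 (-0.41), the transcription factor Sox18 (-0.55) and the adhesion molecule Esam (-0.38), each with an unadjusted p above 0.05, whereas Pecam1 (-0.36) and Cldn5 (-0.69) overlapped. Vwf (0.03) and Sox17 (-0.02) were at about the same level in both genotypes. The count of 3 was 5 without WT replicate 3 and 9 in the fit on the 21 d arrays alone. At 14 d the median of the list was also -0.37, with all 18 members below 0. At 7 d, with 3 arrays per genotype, all of the other hybridization series, it was 0.63, with 16 of 18 above 0. The 6 markers of lymphatic vessels had a median of -0.32 and none past the threshold, and the 10 of pericytes, the mural cells of capillaries, -0.23 and none. Both medians moved with single arrays: that of the lymphatic genes was -0.54 without Mmp13-/- replicate 1, -0.11 without Mmp13-/- replicate 2 or WT replicate 1 and -0.09 without WT replicate 2, and that of the pericyte genes was -0.09 without Mmp13-/- replicate 4 and -0.07 without WT replicate 4.

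**Figure D4:**
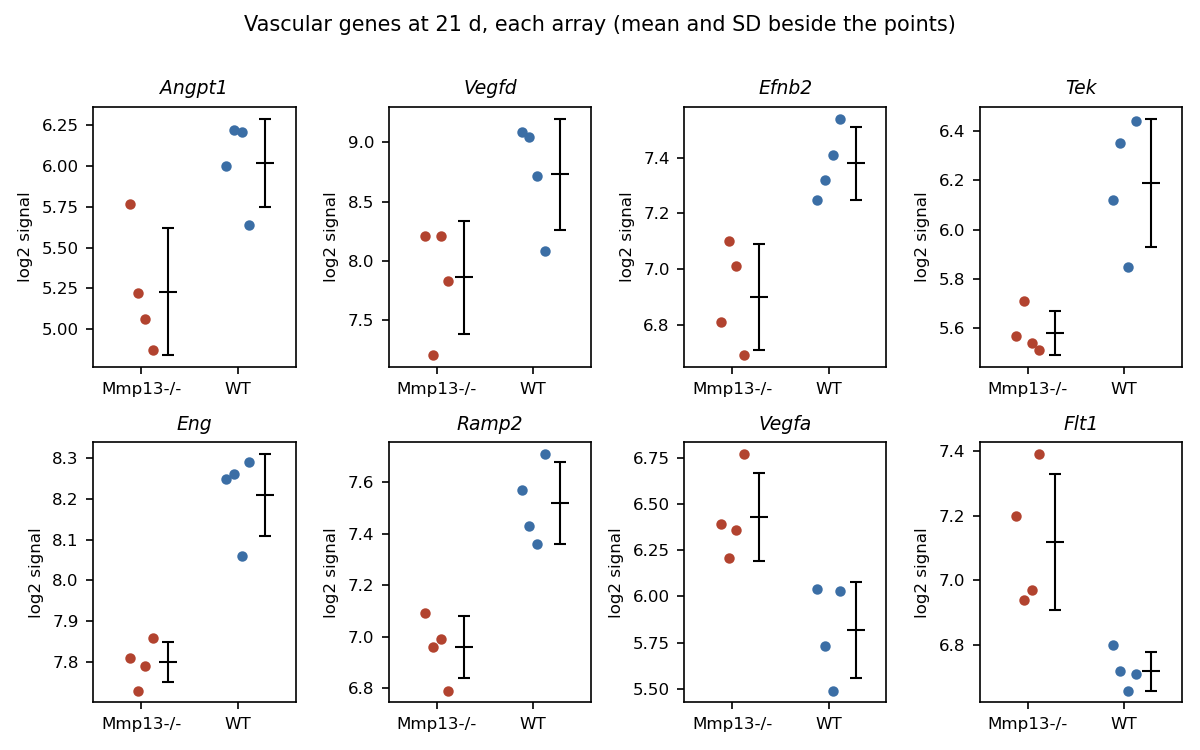
Log2 signal of 8 vascular genes at 21 d on each array, Mmp13-/- left and WT right in each panel, with the group mean and SD (n = 4 each) beside the points. Angpt1, Vegfd, Efnb2, Tek, Eng and Ramp2 were lower in Mmp13-/- tissue, and Vegfa and Flt1 higher.

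Angiogenic factors and receptors divided. Of 32 measured, 3 were higher at an unadjusted p under 0.05 and 8 lower, with a median of -0.23. The ligands that were lower included Angpt1, the agonist of TIE2 that stabilises vessels, which read 5.77, 5.22, 5.06 and 4.87 in Mmp13-/- arrays and 6.00, 6.22, 6.21 and 5.64 in WT arrays. Its log2 difference was -0.79 ± 0.17 (SE; limma, adjusted p = 0.0691), only Mmp13-/- replicate 1 reached the WT range, and without that array the adjusted p was 0.0248, as it was 0.0391 without WT replicate 4. Vegfd, a ligand mainly of the lymphatic VEGF receptor, read 8.21, 7.20, 8.21 and 7.83 in Mmp13-/- arrays and 9.09, 9.05, 8.72 and 8.08 in WT arrays, a difference of -0.87 (adjusted p = 0.141 from limma) with WT replicate 4 inside the Mmp13-/- range. All 3 probe sets of the gene were lower.

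Efnb2, the ephrin of arterial endothelium, and its receptor Ephb4, a venous marker, differed by -0.48 and -0.65, each with all Mmp13-/- arrays below all WT arrays, although 2 of the 4 probe sets of Efnb2 were higher. Mmp13-/- replicate 4, at 4.51, was the lowest for Ephb4 (5.54 to 5.76 in the other Mmp13-/- arrays and 5.97 to 6.07 in WT arrays), and the difference was -0.36 without it. Vegfb (-0.49), Angpt2, the context-dependent TIE2 ligand (-0.32), and Col8a2 (-0.66) were also lower at the unadjusted threshold. Col8a1, the other chain of the short-chain collagen of vessel walls, differed by -0.45 with an unadjusted p of 0.21. On the other side, Vegfa was joined by the VEGF receptor Flt1 (0.40, groups apart) and by its second ligand Pgf (0.72, groups overlapping). The VEGF receptor Kdr (-0.20), the HIF alpha subunits Hif1a (0.08) and Epas1 (0.09) and the inhibitor Thbs1 (-0.04) were not past the threshold. The 3 higher members were 1 without Mmp13-/- replicate 4, and the median of the list was -0.10 without WT replicate 4.

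Growth factors as a whole leaned the same way, with 4 of 40 higher and 10 lower at the unadjusted threshold and a median of -0.11. Pdgfd, a ligand of PDGF receptors on fibroblasts and mural cells, had the largest difference. It read 4.24, 4.34, 4.97 and 3.75 in Mmp13-/- arrays and 6.91, 5.63, 4.97 and 5.84 in WT arrays, a log2 difference of -1.51 ± 0.32 (SE; limma, adjusted p = 0.0656). Mmp13-/- replicate 3 and WT replicate 3 met at 4.97, and without either one the adjusted p was under 0.05 (0.0498 and 0.0283). All 3 of its probe sets were lower, as they were at 14 d for the brightest (-1.22). The heparin-binding factors Mdk (-0.75) and Ptn (-0.78), Hgf (-0.48), the TAM receptor ligand Gas6 (-0.47) and the dim gene Fgf18 (-0.64) were lower, and the EGF receptor ligands Ereg (0.86) and Hbegf (0.43) higher. Igf2 differed by -0.90 (unadjusted p = 0.0884, limma), and the insulin receptor substrate Irs1, of the IGF axis, by -1.0 (unadjusted p = 0.00273, limma). Of the 2 probe sets of Igf2 and the 3 of Ptn, 1 each was higher in Mmp13-/- tissue. Without Mmp13-/- replicate 2 or WT replicate 2 only 6 growth factors were lower at the threshold, and without Mmp13-/- replicate 4 only 2 were higher. Several of these genes stand in more than 1 list, among them Vegfa, Vegfb, Vegfd, Angpt1, Angpt2 and Pgf.

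The acute phase and innate response genes were mostly higher. Of 20 measured, 16 were positive and 7 had an unadjusted p under 0.05 with a higher level in Mmp13-/- tissue, none with a lower one, and the median was 0.22. Saa3, the serum amyloid A made locally by macrophages and stromal cells, read 10.72, 10.92, 10.86 and 11.49 in Mmp13-/- arrays and 10.07, 9.19, 10.19 and 10.64 in WT arrays, a log2 difference of 0.98 ± 0.24 (SE; limma, adjusted p = 0.0967). Hp, the haptoglobin that binds free haemoglobin, read 9.84, 9.73, 10.34 and 10.22 in Mmp13-/- arrays and 9.01, 9.39, 9.09 and 9.42 in WT arrays, a difference of 0.80 (adjusted p = 0.209 from limma). Neither gene showed overlap between the genotypes.

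Ptgs2, the inducible cyclooxygenase of prostaglandin synthesis, differed by 1.49, but its WT arrays were spread from 3.62 to 6.11 and overlapped the Mmp13-/- arrays at 5.97 to 6.86. Without WT replicate 4 its adjusted p was 0.0386 (limma). The others past the threshold were Tlr2 (0.36), a receptor for bacterial lipoproteins, and the feedback inhibitors Tnfaip3 (0.45), Nfkbia (0.26) and Socs3 (0.53). At 14 d the median of the list was -0.19, with 5 of 20 above 0, and the change between days was not called for any member. The count of 7 was 4 without Mmp13-/- replicate 2, Mmp13-/- replicate 4 or WT replicate 2, and 4 with arrays centred on their medians.

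Of 28 chemokines, 4 were higher at the unadjusted threshold and none lower, with a median of 0.12. They were the neutrophil attractants Cxcl1 (0.42), Cxcl2 (0.67) and Cxcl5 (0.55) and the monocyte attractant Ccl2 (0.59), and the groups overlapped in each. Without WT replicate 2 none remained, without Mmp13-/- replicate 1 there was 1 and without Mmp13-/- replicate 4 or WT replicate 3 there were 2, and on the 21 d arrays alone there was 1. Ccl7 (0.41), Ccl4 (0.12) and Il6 (0.51) had unadjusted p-values of 0.134, 0.529 and 0.166. Among cytokines, the interleukin-1 antagonist Il1rn was higher (0.36) and the death ligand Tnfsf10 lower (-0.56), with 1 of 29 higher and 3 lower at the threshold. Chemokine and cytokine receptors had a median of 0.10 with 1 of 26 higher and none lower, and leukocyte adhesion and trafficking genes a median of 0.00 with 3 of 21 higher (Cd44, Itgb7, Itgam) and 1 lower (Icam2).

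The leukocytes' own markers did not follow as a group. Of 18 macrophage genes, Marco alone was past the threshold. This scavenger receptor read 7.65, 7.07, 7.59 and 8.50 in Mmp13-/- arrays and 6.33, 5.60, 7.38 and 6.01 in WT arrays, a log2 difference of 1.37 ± 0.40 (SE; limma, adjusted p = 0.175), with WT replicate 3 inside the Mmp13-/- range. Csf1r (-0.04), Adgre1 (-0.01), Cd68 (-0.02) and Lyz2 (0.07) were nearly level, and the median of the list was -0.03. The neutrophil list had a median of -0.01 and none of 13 past the threshold, and the T and NK cell list -0.04 and 1 of 15 lower (Cd2, dim). The dendritic cell and MHC class II list had 0.01 and 1 of 15 lower (Batf3). The mast cell list had 0.01 and none of 11, and the giant cell and osteoclast list 0.04 and 1 of 11 higher (Oscar, dim). Markers of B and plasma cells were lower in 8 of 10 with a median of -0.31, and 4 (Ms4a1, Ighm, Cd79b, Blnk) were past the threshold. Ms4a1 was dim, its 2 probe sets disagreed in sign, and its difference of -0.56 was -0.33 without WT replicate 3. Blnk was bright (means of 9.98 in Mmp13-/- and 10.24 in WT arrays), while Cd79a was dim (3.44 and 3.54). The mean level of the list was 5.13 to 5.64 in Mmp13-/- and 5.48 to 6.14 in WT arrays. The count of 4 was 2 without Mmp13-/- replicate 4 or on the 21 d arrays alone. Ighm had 11 probe sets that disagreed in sign.

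Interferon-response genes were lower in 20 of 26, with a median of -0.21 and 4 past the threshold (Oas1a, Stat2, Ddx58, Usp18). The list rested on single arrays and on the fit: its count was 2 on the 21 d arrays alone, without the hybridization term or after renewed quantile normalization, 11 without Mmp13-/- replicate 3, 1 without Mmp13-/- replicate 2 or WT replicate 1, and 2 without Mmp13-/- replicate 4 or WT replicate 3 or 4, and its mean level ranged from 6.92 to 7.85 in Mmp13-/- arrays, against 7.38 to 7.66 in WT arrays. Without Mmp13-/- replicate 2 the median was 0.00, with 14 of 26 above 0. Complement components had a median of -0.18, with 3 of 17 lower (Clu, Masp1, Cfp) and 1 higher (C6). In the list of apoptosis and caspases, Casp4 was accompanied by its neighbour Casp12 (-0.30, groups apart), while Cycs (0.29) and Birc3 (0.26) were higher, and the median was 0.01.

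The fibrillar collagens, substrates of MMP-13, were at nearly the same RNA level. None of 11 was past the threshold, the median was -0.07, and Col1a1 (-0.06), Col1a2 (-0.12) and Col3a1 (-0.07) differed by less than 0.15, with standard errors of 0.14, 0.07 and 0.07. Of 19 other collagens, 3 were lower at the threshold. Col14a1, a collagen on the surface of fibrils, differed by -0.79 with the groups apart (9.33, 9.03, 9.35 and 8.40 in Mmp13-/- arrays, and 9.83, 10.12, 9.62 and 9.69 in WT arrays). Enzymes of collagen processing and cross-linking had a median of 0.03, with the prolyl hydroxylases P4ha2 (0.44) and P4ha1 higher and Crtap (-0.25) lower.

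Proteoglycans and matricellular proteins were lower in 23 of 32, 7 at the threshold, with a median of -0.16. Lum, the collagen-binding proteoglycan lumican, read 10.98, 10.82, 10.53 and 10.22 in Mmp13-/- arrays and 11.19, 11.20, 11.06 and 11.22 in WT arrays, a log2 difference of -0.53 ± 0.15 (SE; limma, adjusted p = 0.153). The WT arrays lay within a narrow band above all Mmp13-/- arrays. Dcn, the related decorin, differed by -0.20, and a second, dim probe set of the gene by 0.35. Smoc2 (-0.65) was lower, and Ccn1, a matricellular ligand of integrins, was the single member higher at the threshold (0.54). The count of 7 was 3 without Mmp13-/- replicate 4 and 4 without WT replicate 1 or WT replicate 2.

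Of 17 fibroblast markers 14 were lower, 5 at the threshold (Lum, Clec3b, Dcn, Dpt and Cthrc1), with a median of -0.21 and mean levels of 10.26 to 10.72 in Mmp13-/- and 10.64 to 10.85 in WT arrays. The count was 2 without Mmp13-/- replicate 4, WT replicate 1 or WT replicate 2. Pdgfra (0.15) and Vim (0.01) were not lower. Of 17 elastic fibre genes, 4 were lower (Mfap4, Mfap2, Fbn2 and Eln, -0.47 to -0.82) and Emilin2 higher (0.22), with a median of -0.18, and the count was 2 without Mmp13-/- replicate 2 or 4 or WT replicate 1 or 2. Basement membrane genes had a median of -0.14 with 2 of 23 lower, the laminin chains Lama4 (-0.41) and Lama5 (-0.29).

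In contrast, none of 17 genes of myofibroblasts and smooth muscle was past the threshold, and their median was -0.01. Acta2 differed by -0.01 with a standard error of 0.25, Tagln by 0.03 (0.27) and Cnn1 by -0.22 (0.19). The 17 skeletal muscle markers had mean levels of 6.88 to 8.39 in Mmp13-/- arrays and 6.56 to 8.51 in WT arrays, highest in Mmp13-/- replicate 4 and WT replicate 2, and their part in the results was not tested. Keratinocyte and epidermal genes had a median of -0.21 (2 of 20 lower), adipocyte genes -0.10 (none of 11), erythroid genes -0.09 (none of 7), cartilage and bone genes -0.07 (2 of 15 lower) and Schwann cell and nerve genes -0.03 (2 of 14 higher, Sox10 and Egr2).

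Of 36 genes of TGF-beta and BMP signalling, 26 had a negative difference and 9 a positive one, with a median of -0.09. At the threshold 5 were lower, among them the inhibitory Smad6 (-0.62, dim) and the BMP target Id3 (-0.49), and Id2 was higher (0.59, and 0.22 without WT replicate 3). Id2 read 9.03 in WT replicate 3, against 10.45 to 10.61 in the other WT arrays and 10.46 to 10.91 in Mmp13-/- arrays. Wnt ligands and antagonists had a median of -0.02, with 3 of 26 lower, among them the receptor Fzd2 (-0.42) and the agonist Rspo3 (-0.94), and 3 higher, among them Dkk1 (0.28) and Wnt11 (0.37). In the IGF axis 11 of 14 differences were negative, with a median of -0.20, and 1 was past the threshold (Irs1, -0.65 without Mmp13-/- replicate 4). Mitosis and DNA replication genes had a median of 0.04 with 1 of 33 higher (Mad2l1) and 1 lower (Kif20a).

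Few of the other proteinases were past the threshold. Of 15 measured matrix metalloproteinases besides Mmp13, the gelatinase Mmp2 (-0.40), Mmp16 (-0.36, dim) and Mmp23 (-0.38) were lower at the unadjusted threshold and Mmp24 higher (0.35), with a median of -0.01. Mmp2 read 9.58 to 10.36 in Mmp13-/- arrays and 10.26 to 10.40 in WT arrays, and replicate 1 was the only Mmp13-/- array within the WT range. The stromelysin Mmp3 (-0.43, standard error 0.32) and the gelatinase Mmp9 (-0.47, standard error 0.41) were not past the threshold. Their groups overlapped, and the unadjusted p-values were 0.19 and 0.269 (limma). By qRT-PCR, the paper reports significantly lower Mmp3 and Mmp9 in the knockout at this day. ADAM and ADAMTS proteinases had a median of -0.03, with Adamts1 (-0.57), Adamts5 (-0.38) and Adam12 (-0.33) lower among 23, and the aggrecanase Adamts4 at 0.26 (unadjusted p = 0.262). Proteinase inhibitors had a median of -0.09, with 3 of 21 lower (Pi15, Spint2, Serpinf1) and Slpi higher (0.42). Cathepsins and plasminogen activation genes had a median of 0.01, with the urokinase receptor Plaur higher (0.40) and Ctsf lower (-0.46) among 17.

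Npy, the gene of neuropeptide Y, was the least steady of the genes named. It read 3.99, 9.79, 9.62 and 4.79 in Mmp13-/- arrays and 4.84, 8.42, 9.34 and 9.08 in WT arrays. In both genotypes some arrays were near the median of all probe sets and others were bright, and the difference of -0.87 had a standard error of 1.17.

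Many of the genes with large differences lie on chromosome 9, which carries Mmp13. On it 15 of 1006 measured genes had an unadjusted p under 0.05 and a log2 difference over 0.75 in either direction, 6 higher and 9 lower. Mmp13 itself, the deleted gene, is among the 15. The share is 1.49%, against 69 of 17137 (0.403%) on the other chromosomes and 0.462% of all genes. The highest share of any other chromosome was 0.977%. Counting along the measured genes of the chromosome, Casp4 and Pdgfd stood at places 6 and 4 before Mmp13. Between places 242 and 324 after it came Rps25, Cadm1, Nxpe4, Nnmt, Plet1, Dixdc1 and Layn, then Calml4 at 448 and Car12 and Aph1b at 497 and 498. Atm, at place 340, was not among the 15, since its brighter probe set did not share the difference of the called one. Prss35 and Clec3b were farther off. The metalloproteinase genes next to Mmp13, from Mmp12 at place 1 to Mmp7 at place 8, were not past these limits. Of the 16 named probe sets called, 5 lay on chromosome 9, that of Mmp13 among them, against at most 3 on any other. The mice descend from a cross of 2 strains, and strain of origin around Mmp13 was not measured here, so that its part in these differences was not tested.

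**Figure D5:**
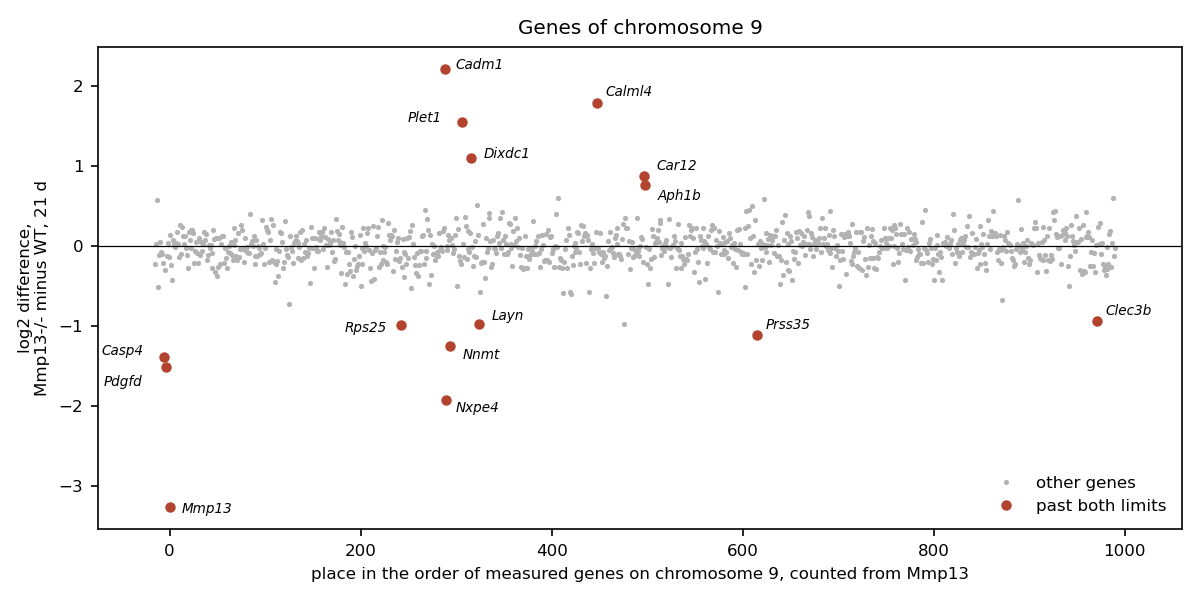
Log2 difference, Mmp13-/- minus WT at 21 d, of 1006 measured genes of chromosome 9 against their place in gene order counted from Mmp13. The 15 red dots, which are named, had an unadjusted p under 0.05 and a log2 difference over 0.75 in either direction, and 7 of them lie between places 242 and 324.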

How the data were processed

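RNA of sponge granulation tissue was hybridized to whole-genome mouse arrays of Affymetrix. The deposited values are log2 signals, which the authors made with RMA (background correction, quantile normalization and median polish over the probes of a probe set). For the version of RMA and the set of arrays normalized together, the answer is not given in the sources used here. Of 45101 probe sets, 64 controls were left out. Probe sets were named from the platform annotation: 34945 had 1 gene, 932 several and 9160 none.

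A linear model with 6 groups of genotype and day and the hybridization series was fitted to all 22 arrays in limma 3.58.1 (R 4.3.3), and Mmp13-/- minus WT at 21 d was tested with empirical Bayes moderation and Benjamini-Hochberg adjustment over 45037 probe sets, called at an adjusted p under 0.05. The script was tested on simulated data. A gene was represented by its brightest probe set, and dim means a mean below 4.22. Named were the called genes, the 10 largest rises and 10 largest falls among brighter genes (limits: unadjusted p 0.05, log2 difference 0.75 in either direction), the genes the study names from these arrays, and, per list, the 4 or fewer members of smallest unadjusted p below 0.05. Other list members named were chosen after their values were seen. The genes and the 43 lists were chosen with earlier results of these data known. With 1 sample per mouse, the number of arrays (4 per genotype) limits the precision. Alternatives were the 21 d arrays alone, the hybridization term, a replicate block, median centring, renewed quantile normalization, a filter on dim probe sets, robust moderation, the mean over probe sets, and leaving out each array.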

Additional observations from a re-analysis of the deposited data

Results flagged for a closer look

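Among 264 groups of 4 arrays tested (132 named genes in 2 genotypes), 20 held an array set apart from the others. Its gap to the nearest of them exceeded Dixon's 95% limit as a share of the group's range. For unselected groups of normal values, chance alone gives about 1 in 20. Many of these genes were picked by their values on these arrays, so that rate is only a rough guide. The 20 fell on Mmp13-/- replicate 4 (5 genes), WT replicates 3 and 4 (4 each), Mmp13-/- replicates 1 and 2 (3 each) and WT replicate 2 (1).

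In Mmp13-/- replicate 4, Atm read 3.64 (4.12 to 4.20 in the other arrays of the group), Rpf2 8.26 (7.97 to 8.00), Alppl2 5.38 (5.61 to 5.65), Col22a1 3.54 (3.95 to 4.02) and Cd2 3.48 (3.92 to 3.98). In Mmp13-/- replicate 1, Rbm4b read 4.73 (4.50 to 4.51), Cycs 9.90 (10.28 to 10.35) and Smad6 4.39 (3.70 to 3.77). In Mmp13-/- replicate 2, Calml4 read 5.21 (6.21 to 6.38), Dixdc1 4.91 (5.53 to 5.59) and Masp1 5.80 (4.95 to 5.05).

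In WT replicate 3, H2bc21 read 3.54 (5.85 to 6.19), Nxpe4 5.67 (6.84 to 6.93), Id2 9.03 (10.45 to 10.61) and Mmp23 9.14 (8.46 to 8.51). In WT replicate 4, Col8a1 read 9.76 (10.34 to 10.44), Rspo3 5.05 (6.57 to 6.72), Matn4 4.93 (6.04 to 6.22) and Batf3 5.64 (6.49 to 6.60). In WT replicate 2, Dkk1 read 3.07 (2.83 to 2.87).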

How the results depend on the processing

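The count of 22 called probe sets depended on the fit: 10 were called on the 21 d arrays alone, the same fit as on the arrays of that hybridization series, 7 without the hybridization term, 13 with robust moderation and 9 of 22520 with dim probe sets left out. Centring on medians gave 35 (20 of the 22 among them, all genes shifted by -0.03) and renewed quantile normalization 71 (21 among them). Leaving out 1 array gave 22 to 110, with 110 without WT replicate 3, 98 without WT replicate 4, 67 without Mmp13-/- replicate 1, 61 without WT replicate 2 and 54 without Mmp13-/- replicate 3. The count past both the unadjusted p and the log2 limit was 155 to 307 (258 without Mmp13-/- replicate 1 and 307 without WT replicate 4). The replicate numbers did not pair the samples (correlation of deviations -0.13 to 0.01 for the same number and -0.17 to 0.16 for different numbers). With the replicate block 29 were called, 14 of them among the 22, and with the block on the 21 d arrays only 1 was, where Mmp13 stayed at -3.26 with an adjusted p of 0.133 (limma). Among single genes the sign turned for Ccl4 without Mmp13-/- replicate 4 (-0.10, range over all arrays left out -0.10 to 0.26), Npy without Mmp13-/- replicate 1 (0.15, range -1.90 to 0.15) and, with the mean over the probe sets of a gene, Adamts4 (-0.01), Dcn (0.08) and Lama5 (0.06). Leaving out 1 array also gave calls to Gpt2 (Mmp13-/- replicate 2), Smad6 (Mmp13-/- replicate 1), Aldh1l2 (Mmp13-/- replicate 1 or WT replicate 1), Nxpe4 (WT replicate 3) and Serpini1, Saa3, Adamts1, Ighm and Matn4 (WT replicate 4), with adjusted p-values of 0.0113 to 0.0455 (limma). Over all single-gene values and settings, those named here included, 2227 kept direction and side of the threshold, 25 newly passed it, 101 no longer did and 5 changed sign. The causes were not tested.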
